A study of Mus musculus with 4 samples.

Results

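The 39 genes described here are those of mitosis and of the spindle checkpoint, chosen by gene symbol from a written list of regulators, motors and structural proteins of cell division, and each symbol matched 1 of the 55359 genes in the deposited table. Poly(A) RNA of 4 libraries, called 01, 02, 21 and 22 after the numbers in their titles, was sequenced from mouse cells labelled as female germline stem cells of the ovary and kept in serum medium with the cytokines LIF, GDNF, bFGF and EGF. By its title and design text the study compared cells with and without the plant triterpenoid celastrol at 12 h, in triplicate, and concerns pyroptosis through STING and NLRP3, but the labels of the libraries are alike apart from the leading number in each title, so no library could be placed in a treated or a control group. Every value below therefore describes single libraries, always in the order 01, 02, 21 and 22. Which libraries are replicates of each other is unknown, so there is no test of a condition, and differences are set against counting error and against all other genes. The labels give no mouse strain or age beyond the name of the cells and do not say whether the libraries came from separate cultures. The genome build of the deposited coordinates, which are printed as they stand, is not given in the sources used here.

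The libraries held 12339636 to 13039541 counts, and 11854 to 11978 genes reached 1 FPKM (counted fragments divided by the kilobases of exon in the gene and by the size of the library). Of 8 germ cell markers, 2 reached 1 FPKM in all the libraries, Ifitm3 and Kit, and the defining germ cell genes Ddx4 and Dazl had 0, 2, 0 and 0 counts and 0, 4, 0 and 0 counts. Dppa3 and Nanos3 were without a count, and the summed level of the list, nearly all of it Ifitm3 and Kit, was 332, 335, 379 and 374 FPKM. None of 5 oocyte and 4 granulosa cell markers reached 1 FPKM in any library, and their sums were at most 0.54 and 0.24 FPKM. Markers of other cell types were detected: all 4 fibroblast markers were above 1 FPKM, with summed levels of 54.3 to 64.6 FPKM, and 4 of 6 macrophage or mast cell markers were above it. The summed level of the latter was 587, 582, 349 and 368 FPKM, carried by Cpa3 (333, 325, 229 and 247 FPKM) and Adgre1 (218, 220, 97.7 and 96.3 FPKM), with Csf1r at 0.15 FPKM or less and Fcer1a without a count. Cd68 was at 25.34, 25.5, 11.69 and 13.25 FPKM and Ptprc at 10.16, 11.18, 10.44 and 11.32 FPKM. The levels of these markers differed between libraries, and their part in the values below was not tested.

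In mitosis, the kinase CDK1 with cyclin A or cyclin B drives chromosome condensation and assembly of the spindle. The spindle checkpoint (BUB1, BUBR1, BUB3, MAD2 and the kinase MPS1) senses kinetochores without microtubules and holds back the anaphase promoting complex and its activator CDC20. Once all chromosomes are attached, that complex marks cyclin B and securin for destruction, separase opens the cohesin rings, and the central spindle and a contractile ring divide the cell. Most of these genes are known to be transcribed late in the cell cycle, through a repressor and activator complex (DREAM and MYB-MuvB) that binds a promoter element called the cell cycle homology region, together with the factor NF-Y at CCAAT boxes. The level of such genes in bulk RNA depends on how many cells are dividing and on how much RNA each holds, and these cannot be told apart here.

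That promoter architecture was looked for in the RefSeq promoters (250 bases before to 50 after each transcription start, GRCm38.p6), which matched 33 of the 39 genes. The cell cycle homology motif, searched as TTTGAA on both strands, was in the promoters of 25 of the 33 (75.8%), against 1216 of 8673 genes that averaged at least 1 FPKM and had a promoter entry (14%) and 5466 of 27025 genes in all (20.2%). CCAAT, also on both strands, was in 25 of the 33 (75.8%), against 43.6% of the expressed and 41.1% of all genes, and at 2 or more places in 17 (51.5%), against 17.5% and 13.3%. Each motif was searched on its own, so neighbouring copies of both may share a letter at their ends. Both motifs were in 22 of the 33 promoters (66.7%), against 5.81% of expressed genes and 7.97% of all genes. Of the other mitosis genes on a second written list, 41 of 101 with a promoter held TTTGAA (40.6%) and 28 held both motifs (27.7%). A match is a description of these letters and does not show that a factor binds there, and a gene with several annotated starts counts once if any of them has the motif.

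The TTTGAA copies lay close to the start: 23 of 33 promoters (69.7%) had one within 50 bases on either side of it, a window chosen after the positions were seen, against 3.79% of expressed and 5.72% of all genes. Within the 100 bases before the start alone the count was 9 of 33 (27.3%), against 3.85% of expressed and 6.76% of all genes. The following 9 stretches of 100 bases before the start (RefSeq, GRCm38.p6, 5′ to 3′ on the gene's strand) are examples from genes of several roles. TTTGAA and CCAAT on either strand are in capitals, and not all of the stretches hold TTTGAA.
Cdk1, chr10:69352913-69353012, minus strand: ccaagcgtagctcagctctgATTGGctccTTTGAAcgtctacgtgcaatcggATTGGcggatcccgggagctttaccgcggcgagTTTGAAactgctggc
Top2a, chr11:99024190-99024289, minus strand: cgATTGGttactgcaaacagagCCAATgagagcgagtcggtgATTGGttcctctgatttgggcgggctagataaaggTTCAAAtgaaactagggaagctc
Kif11, chr19:37376282-37376381, plus strand: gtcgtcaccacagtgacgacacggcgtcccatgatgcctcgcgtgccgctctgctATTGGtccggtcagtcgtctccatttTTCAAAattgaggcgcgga
Cdc20, chr4:118437344-118437443, minus strand: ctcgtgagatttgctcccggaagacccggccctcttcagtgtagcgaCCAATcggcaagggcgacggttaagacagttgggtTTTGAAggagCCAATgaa
Espl1, chr15:102296193-102296292, plus strand: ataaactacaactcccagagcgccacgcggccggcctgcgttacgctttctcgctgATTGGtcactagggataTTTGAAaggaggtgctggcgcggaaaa
Ccnb2, chr9:70421555-70421654, minus strand: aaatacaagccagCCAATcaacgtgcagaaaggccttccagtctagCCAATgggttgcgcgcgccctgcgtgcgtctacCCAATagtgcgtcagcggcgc
Aurka, chr2:172370571-172370670, minus strand: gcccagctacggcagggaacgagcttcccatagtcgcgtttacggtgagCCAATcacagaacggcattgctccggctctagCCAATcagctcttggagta
Ttk, chr9:83834589-83834688, plus strand: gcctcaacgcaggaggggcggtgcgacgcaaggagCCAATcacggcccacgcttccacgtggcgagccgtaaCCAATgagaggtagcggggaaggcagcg
Spc25, chr2:69206214-69206313, minus strand: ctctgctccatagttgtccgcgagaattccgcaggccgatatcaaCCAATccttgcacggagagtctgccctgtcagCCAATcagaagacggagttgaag
The first 5 carry both motifs before the start, with TTTGAA nearer to it than at least 1 CCAAT. In Ccnb2, Aurka, Ttk and Spc25 these 100 bases hold CCAAT at 2 or 3 places, and the TTTGAA copies nearest to the start are centred 7, 35, 10 and 27 bases after the start. A TTTGAA copy lay downstream of at least 1 CCAAT in all 22 genes that hold both motifs, as the plot of motif positions shows. Promoters with several copies meet this easily. The same was not counted for other genes with both motifs, so this order cannot be called particular to these genes. No match to either motif was found, over the full 300 bases, for Birc5, Mad2l1, Nuf2, Nusap1 and Pttg1, and Aurkb, Ccna2, Incenp, Kif20a, Spc24 and Tpx2 have no sequence shown.

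**Figure D1:**
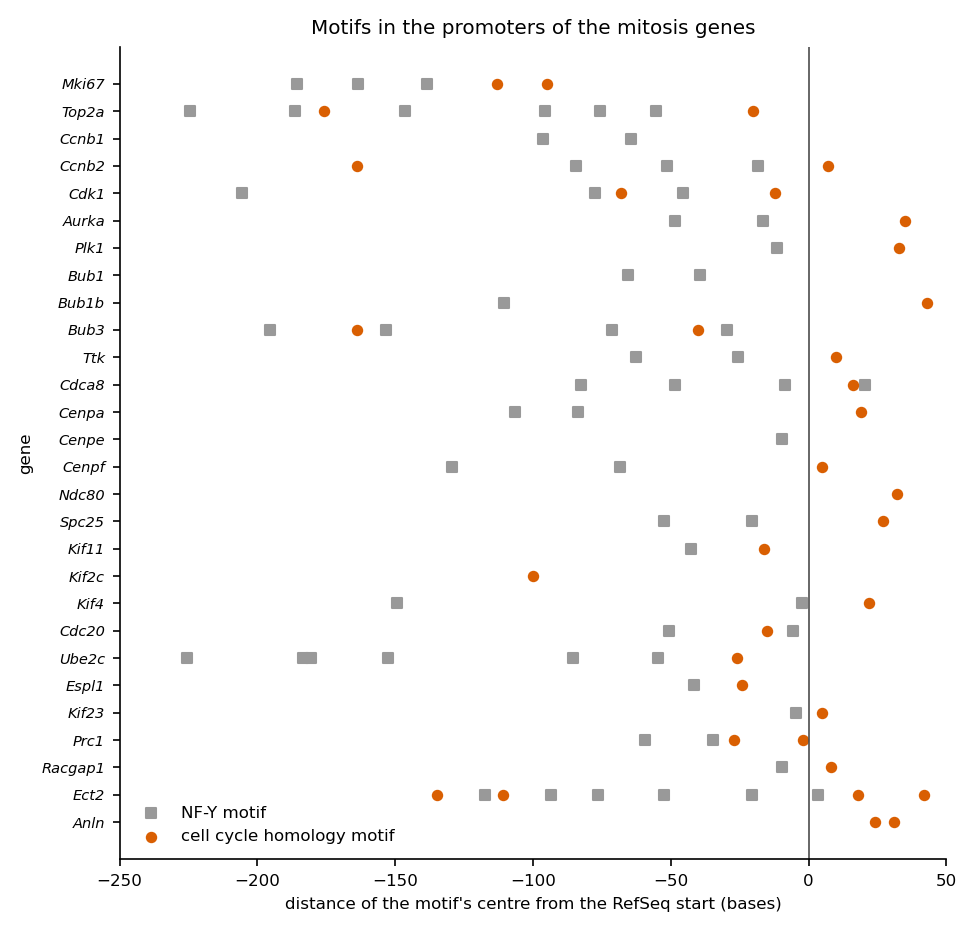
Positions of the cell cycle homology motif (circles) and the NF-Y motif (squares) in the RefSeq promoters of the 28 of 33 genes that hold at least 1 of them, as distance in bases of the motif's centre from the transcription start, with all annotated starts of a gene on 1 line. Most circles lie within 50 bases of the start, downstream of squares of the same gene, and Bub3, Ect2 and Prc1 have 2 starts each.

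All 39 genes were above 1 FPKM in every library, from 266 counts for Spc24 in library 02 to 11723 counts for Top2a in library 22. Their median level was 19.3, 19.8, 20.9 and 20.1 FPKM, against 8.26, 8.35, 8.2 and 8.23 FPKM over the 11874 genes that averaged at least 1 FPKM, the background used throughout. Together they took 0.411%, 0.426%, 0.473% and 0.488% of all counts, with Wilson 95% intervals of 0.407% to 0.414%, 0.423% to 0.43%, 0.469% to 0.477% and 0.484% to 0.492%. The share was thus lowest in library 01 and highest in library 22, and no 2 of the intervals overlap, but they cover counting error only, and Top2a alone gave 8370 to 11723 of the counts. Levels are per kilobase of the exonic size, which adds up the exons of all transcripts of a gene, so a gene with long, rarely used exons is understated next to another.

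**Figure D2:**
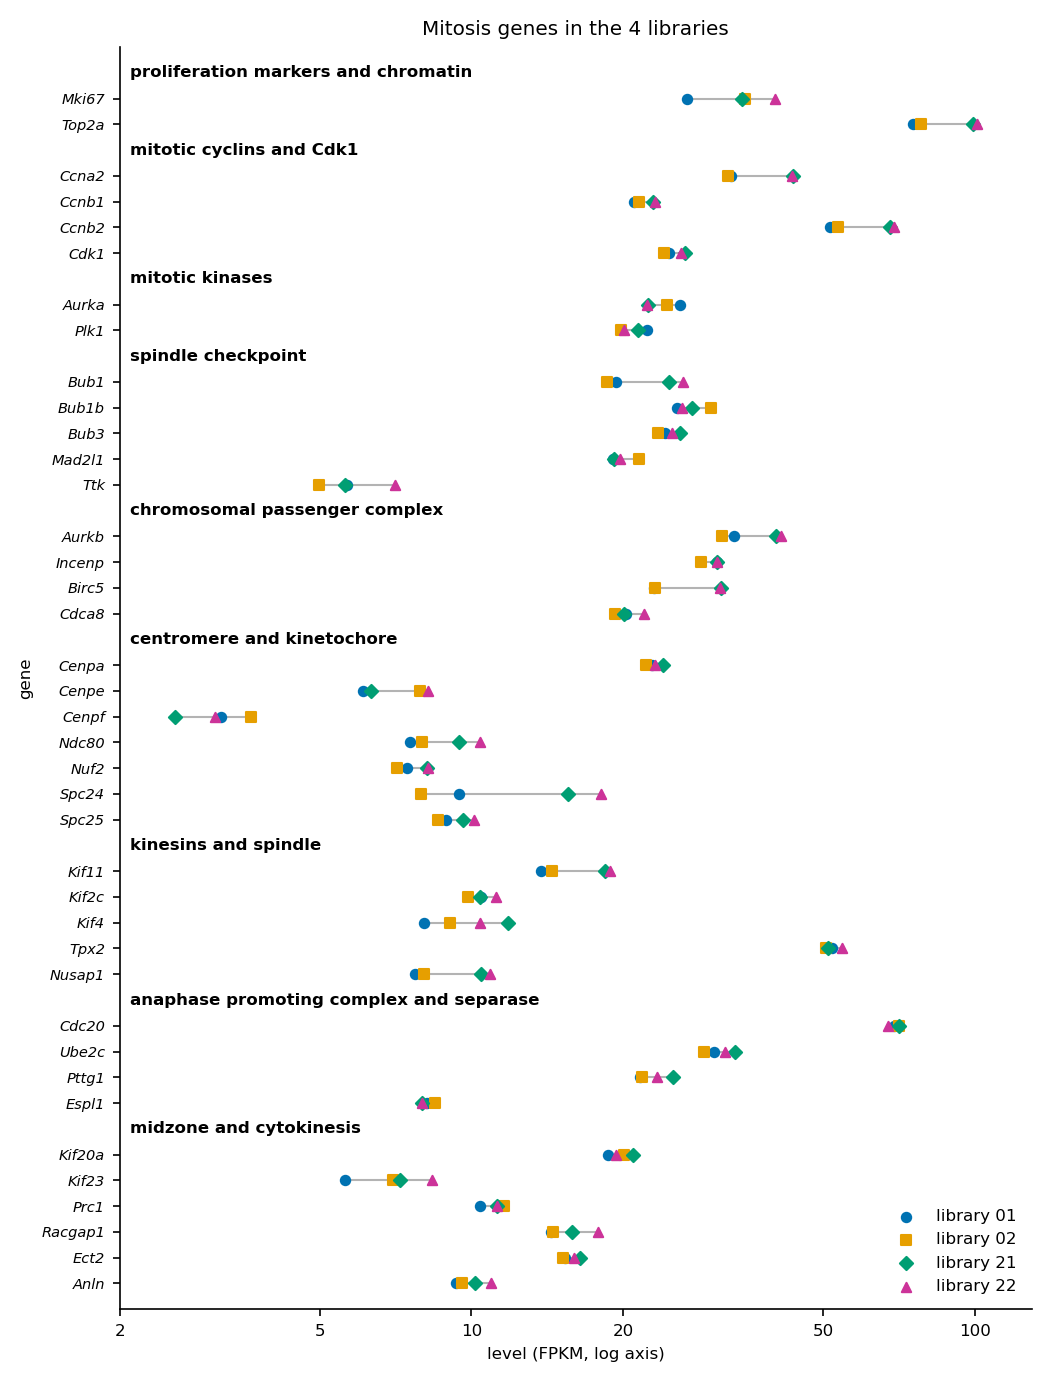
Level in FPKM (log axis) of the 39 genes in each of the 4 libraries, 1 point per library, grouped by role, with a grey line from the lowest to the highest library. Levels run from 2.58 FPKM (Cenpf, library 21) to 101 FPKM (Top2a, library 22), and the libraries lie close together for most genes, Spc24 being the widest.

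Both general proliferation genes were lowest in library 01 and highest in library 22. Mki67, whose product Ki-67 coats mitotic chromosomes (ENSMUSG00000031004, chromosome 7, minus strand, from 135291513 to 135318090), measured 26.8, 35.0, 34.5 and 40.1 FPKM, or 3331, 4591, 4294 and 5185 counts. Library 01 stood below the rest for Mki67, with a Poisson 95% interval of 25.9 to 27.8 FPKM, against 34.0 to 36.0 and 33.4 to 35.5 in libraries 02 and 21, which overlap, and 39 to 41.2 in library 22. Top2a, the topoisomerase that untangles sister chromatids, was the highest of all 39 at 75.3, 78.2, 99.3 and 101 FPKM. Here libraries 01 and 02 were close, as were libraries 21 and 22.

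Among the cyclins, Ccna2 and Ccnb2 differed between libraries more than Ccnb1 and Cdk1. Ccna2 (cyclin A2, active from S phase into early mitosis) was at 32.8, 32.3, 43.6 and 43.3 FPKM, and Ccnb2 (cyclin B2) at 51.6, 53.6, 67.9 and 69.2 FPKM. In both genes the highest library was 1.35 and 1.34 times the lowest, and the intervals of these libraries were apart. Ccnb1, the main mitotic cyclin, was at 21.0, 21.5, 22.9 and 23.1 FPKM, and Cdk1, its kinase, at 24.7, 24.1, 26.5 and 26.1 FPKM, with overlapping intervals of the lowest and highest library in each. The ratio of Ccnb1 to Cdk1 in FPKM was 0.85, 0.894, 0.863 and 0.888, whereas that of Ccna2 to Cdk1 was 1.33, 1.34, 1.64 and 1.66. Of the kinases, Aurka (Aurora A, at the spindle poles) was at 26.0, 24.4, 22.4 and 22.3 FPKM, with separate intervals of library 01 (24.2 to 27.9) and library 22 (20.7 to 24.0). Plk1, the polo kinase of mitotic entry and exit, was at 22.3, 19.8, 21.4 and 20.1 FPKM and its extremes overlapped. These kinases and Incenp were the 3 genes that were highest in library 01.

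The spindle checkpoint genes did not share 1 order. Bub1, the kinase that marks centromeres for the checkpoint and shugoshin, was at 19.3, 18.6, 24.7 and 26.3 FPKM. Its log2 range, meaning the span of log2(FPKM + 1) from the lowest library to the highest, was 0.48; the added 1 understates the change of low genes. Bub1b, which encodes BUBR1 of the complex that inhibits CDC20, was instead highest in library 02, at 25.7, 29.9, 27.4 and 26.2 FPKM. The ratio of Bub1 to Bub1b was 0.754, 0.622, 0.899 and 1. Bub3, the partner of both, was at 24.3, 23.5, 25.9 and 25.1 FPKM, and Mad2l1 (MAD2) at 19.1, 21.5, 19.2 and 19.8 FPKM, again highest in library 02. Ttk, the MPS1 kinase at the top of the checkpoint, was the lowest of the 5 at 5.67, 4.99, 5.6 and 7.04 FPKM, with library 22 above the other libraries. In all 5 genes the intervals of the lowest and the highest library were apart, as they were in 56.9% of all genes.

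In the chromosomal passenger complex, which corrects faulty attachments and guides cytokinesis, the subunits differed from each other. Aurkb (Aurora B, its kinase) was at 33.2, 31.5, 40.3 and 41.2 FPKM and Birc5 (survivin) at 23.1, 23.2, 31.3 and 31.3 FPKM, so that the highest library was 1.31 and 1.36 times the lowest. The scaffold gene Incenp stayed within 28.7 to 30.8 FPKM, with 30.8, 28.7, 30.8 and 30.7 FPKM, with overlapping intervals. Cdca8 (borealin) was at 20.3, 19.3, 20.1 and 22.0 FPKM, with library 22 apart from library 02. The ratio of Birc5 to Incenp was 0.749, 0.809, 1.02 and 1.02, and that of Aurkb to Aurka 1.28, 1.29, 1.8 and 1.84.

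Kinetochore genes held the widest range of all 39. Spc24, a subunit of the NDC80 complex that anchors microtubules to kinetochores (ENSMUSG00000074476, chromosome 9, minus strand, from 21666738 to 21671599), measured 9.45, 7.93, 15.6 and 18.1 FPKM, or 300, 266, 497 and 597 counts. Counting error put library 01 between 8.41 and 10.6 FPKM, library 02 between 7.0 and 8.94, library 21 between 14.3 and 17.0 and library 22 between 16.6 and 19.6, so libraries 21 and 22 overlapped each other and lay above libraries 01 and 02, which also overlapped. Library 22 was 2.28 times library 02, and the log2 range 1.09.

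The other subunits of that complex varied less. Ndc80 was at 7.56, 7.96, 9.44 and 10.4 FPKM, Nuf2 at 7.45, 7.1, 8.15 and 8.2 FPKM and Spc25 at 8.92, 8.59, 9.62 and 10.1 FPKM, all with library 22 highest. The intervals of the lowest and highest library were apart for Ndc80 and overlapped for Nuf2 and Spc25. The ratio of Spc24 to its direct partner Spc25 was 1.06, 0.923, 1.62 and 1.78. The subunits assemble in equal number, and their transcript levels per length ran from 7.45 to 9.45 FPKM in library 01 and from 8.2 to 18.1 FPKM in library 22. Of the 100-base stretches of Spc24 transcripts 99.1% occur in no other gene.

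Cenpa, the histone H3 variant that marks the centromere, was at 22.9, 22.2, 24.0 and 23.2 FPKM, with overlapping intervals. Cenpe, the kinetochore kinesin, was at 6.09, 7.89, 6.32 and 8.21 FPKM, so that libraries 02 and 22 were the high ones. Cenpf, a large protein of the outer kinetochore, was the lowest of all 39 genes and differed from the rest in its order, at 3.18, 3.65, 2.58 and 3.1 FPKM, with library 21 lowest and library 02 highest.

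The kinesins and spindle proteins fell into genes with wide and narrow ranges. Kif11 (Eg5, which pushes the spindle poles apart) was at 13.8, 14.4, 18.4 and 18.9 FPKM and Nusap1, a microtubule bundler, at 7.71, 8.05, 10.4 and 10.9 FPKM. Kif4 (KIF4A, a chromosome and midzone kinesin) was at 8.04, 9.08, 11.8 and 10.4 FPKM, highest in library 21, and its log2 range was 0.51. Kif4 overlaps Pdzd11 on the opposite strand, and 86.7% of its stretches are unique to it. If reads were counted without strand, those of the shared stretches could come from either gene. Pdzd11 had 637, 613, 546 and 570 counts. Kif2c (MCAK, a microtubule depolymerase) was at 10.4, 9.86, 10.4 and 11.2 FPKM, and Tpx2, an activator of Aurora A and nucleator of spindle microtubules, at 52.1, 50.7, 51.1 and 54.6 FPKM, both lowest in library 02 and highest in library 22, with separate intervals for Tpx2 but not for Kif2c.

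Genes of the anaphase promoting complex pathway had the narrowest median range of the 9 roles, 0.14. Cdc20 (ENSMUSG00000006398, chromosome 4, minus strand, from 118290098 to 118294549) had the smallest log2 range of the 39 genes, 0.07, at 69.02, 70.9, 70.7 and 67.4 FPKM, with intervals within 64.2 to 74.3 FPKM. Ube2c, the ubiquitin-conjugating enzyme of the complex, was at 30.4, 29.0, 33.4 and 31.9 FPKM, and of the 4 genes it alone had separate intervals. Of all genes 56.9% had them. Pttg1 (securin, the inhibitor of separase) was at 21.6, 21.9, 25.1 and 23.4 FPKM and Espl1 (separase) at 8.16, 8.45, 7.99 and 7.97 FPKM. The ratio of Pttg1 to Espl1 was 2.65, 2.59, 3.15 and 2.93, and that of Cdc20 to Mad2l1, activator to inhibitor, was 3.61, 3.3, 3.69 and 3.41.

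Of the midzone and cytokinesis genes, 5 of 6 were lowest in library 01, as were 18 of all 39 (46.2%) and 25.6% of all genes. Kif23 (MKLP1, the kinesin of centralspindlin) was at 5.61, 6.98, 7.2 and 8.34 FPKM, and its log2 range was 0.499, just under the threshold of 0.5 used below. Its partner Racgap1 was at 14.4, 14.5, 15.9 and 17.9 FPKM, and the ratio of Racgap1 to Kif23 was 2.56, 2.08, 2.2 and 2.14. Both thus had library 22 as the highest. Kif20a (MKLP2) was at 18.6, 20.1, 20.9 and 19.4 FPKM and Prc1, which crosslinks midzone microtubules, at 10.4, 11.6, 11.2 and 11.2 FPKM. Ect2, the exchange factor that activates RhoA, was at 15.3, 15.2, 16.4 and 15.99 FPKM, and Anln (anillin, a scaffold of the contractile ring) at 9.34, 9.56, 10.2 and 10.9 FPKM. The intervals of the extremes were apart for Kif23, Racgap1 and Anln and overlapped for the other 3, against 56.9% of all genes with intervals apart.

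The ranges of the 39 genes were not wider than those of other genes. Their median log2 range was 0.211, against 0.275 over the background genes and 0.256 over the 8645 genes within the same span of mean levels. A log2 range of 0.5 or more was found for 3 of 39 (7.69%), Spc24, Mki67 and Kif4. Of all genes 17.3% passed it, and of genes within that span of levels 12.5%. Without library 01 the count was 1 of 39. A range over fewer libraries cannot be wider, and the share of all genes without library 01 was not counted. Separate intervals of the lowest and highest library were found for 25 of 39 (64.1%), near the 56.9% of all genes and the 61% of genes within that span of levels.

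**Figure D3:**
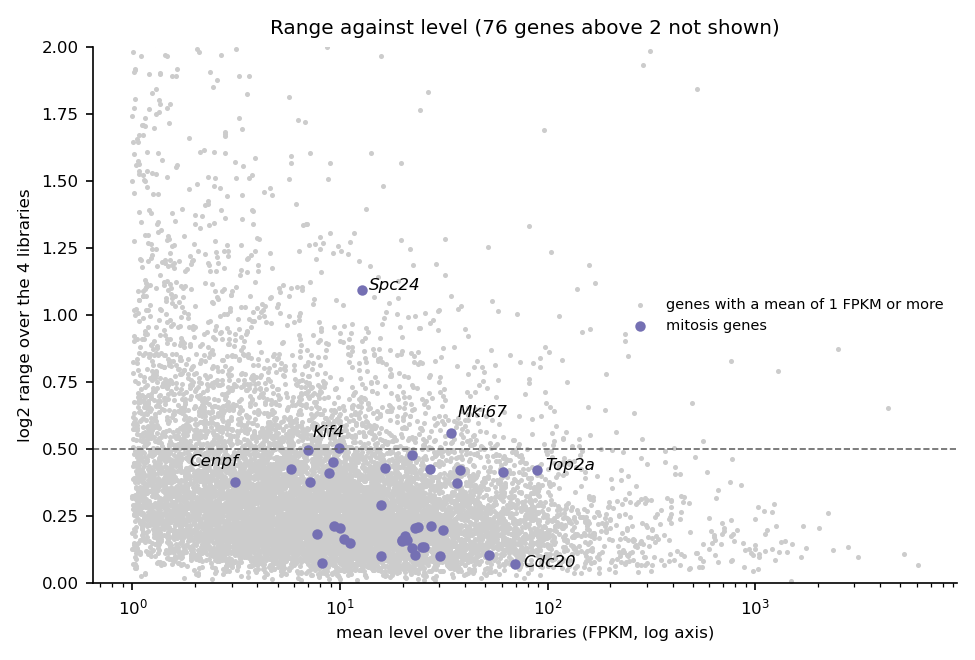
Log2 range over the 4 libraries against the mean level in FPKM (log axis) for the 39 genes (purple) and for the 11874 background genes that averaged at least 1 FPKM (grey), with the threshold of 0.5 as a dashed line. Spc24 at 1.09 lies well above the other mitosis genes, most of which are in the lower part of the grey cloud, and 76 grey genes with a range above 2 are not shown.

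Which library was high or low was less even among these genes than among all genes. Library 01 held the lowest value of 18 of 39 genes and library 02 of 17, against 25.6% and 25.5% of all genes. Library 21 was lowest for 1 gene, Cenpf, and library 22 for 3, Aurka, Cdc20 and Espl1, against 25% and 23.9% of all genes. Library 22 held the highest value of 20 genes and library 21 of 10, against 25.1% and 23.9% of all genes. Libraries 01 and 02 were highest for 3 and 6 genes, against 24.7% and 26.4%. When the libraries were rescaled to the same sum of FPKM, library 21 was lowest for 4 genes and library 22 for 1.

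For the 6 pairs of libraries the median difference of the 39 genes in log2(FPKM + 1) was as follows, and the pairs share libraries. It was 0.11 for library 21 minus 01, 0.123 for 22 minus 01, 0.107 for 21 minus 02 and 0.165 for 22 minus 02, with 30, 33, 30 and 31 of the 39 genes higher in the first named. The same medians over all genes were 0.002, 0.005, -0.005 and -0.001, with 50.2%, 50.6%, 49% and 49.7% of genes higher. For library 02 minus 01 and for 22 minus 21 the medians of the 39 were 0.013 and 0.026, with 21 and 22 of them higher, and those of all genes 0.001 and 0.002. For a single gene, the 95% counting error of a difference between libraries had a median half-width of 0.119 over the 39, on the log2 scale.

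**Figure D4:**
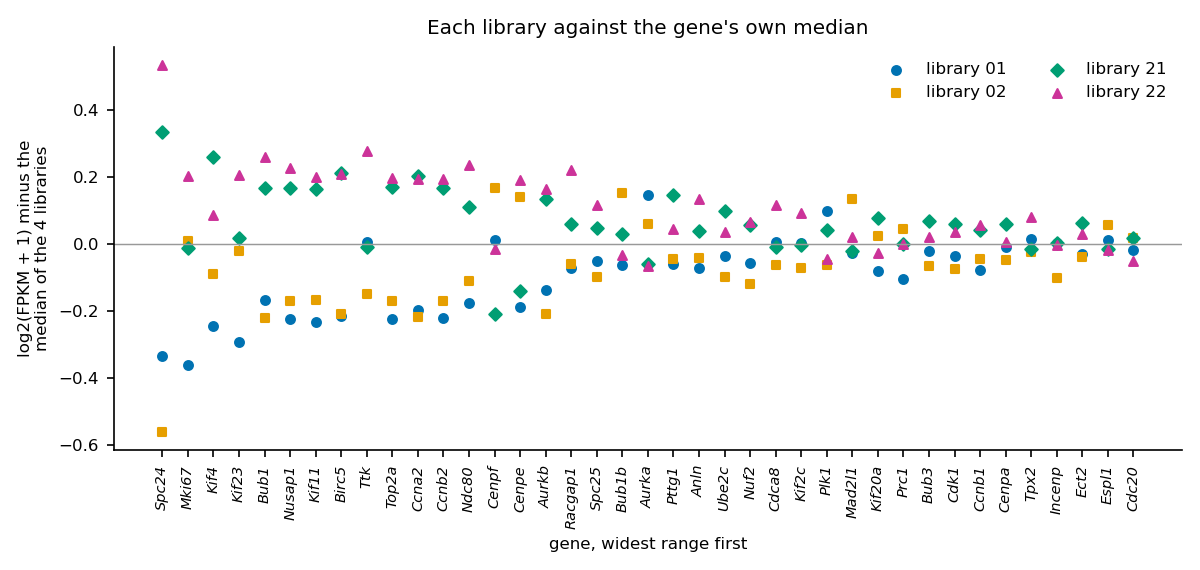
Difference of each library's log2(FPKM + 1) from the gene's own median over the 4 libraries, for the 39 genes ordered by range. Library 22 is the highest point for 20 genes and library 01 or 02 the lowest for 18 and 17, Cenpf being lowest in library 21, and the points converge near 0 at the right, where Cdc20 is last.

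Exonic size moved with the difference between libraries 01 and 02. Of the 19 mitosis genes longer than the median size of 4919 bases, 13 were higher in library 02 than in 01 (median difference 0.054), against 8 of the 20 others (median -0.043). All genes showed this too: 63.5% of 4656 longer genes and 41.7% of 7218 shorter genes were higher in library 02. The 3 genes with the largest such differences were Mki67 (10.061 kb), Cenpe (8.62 kb) and Kif23 (7.901 kb), at 1.3, 1.3 and 1.24 times the level of library 01. The pairs 22 minus 02 and 21 minus 02 differed in this. In library 22, 15 of the 19 longer genes and 16 of the 20 others were higher than in 02, and of all genes 44.9% of the longer and 52.8% of the shorter. In library 21, 13 of the 19 longer genes (68.4%) and 17 of the 20 others (85%) were higher than in 02, and of all genes 43% and 52.9%. Against library 01, library 21 was higher for 84.2% of the longer and 70% of the other mitosis genes. Of all genes, 51.2% of the longer and 49.5% of the shorter were higher in that pair. The part of size in the differences of single genes was not tested.

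**Figure D5:**
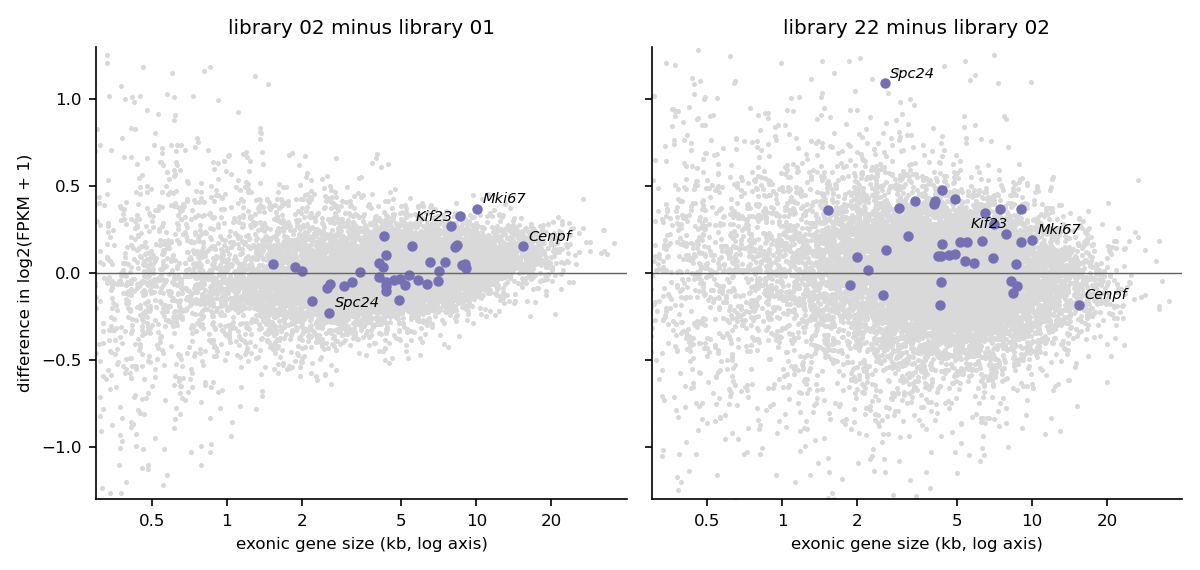
Difference in log2(FPKM + 1) between libraries 02 and 01 (left) and between 22 and 02 (right) against exonic size in kb (log axis), for the 39 genes (purple) and the background genes (grey). On the left the points climb with size, and on the right most purple points lie above 0 at every size, with Spc24 highest; a few grey points lie beyond the axes.

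Of 118 other mitosis genes on 7 written lists, 117 were found and all 117 averaged at least 1 FPKM, with a median log2 range of 0.276. Lin54 was not matched. A range of 0.5 or more was found for 13 of them, against 17.3% of all genes, and separate intervals for 77 (65.8%), against 56.9%, the first below and the second near the share of all genes. Libraries 01, 02, 21 and 22 were lowest for 47, 34, 23 and 13 of the 117 and highest for 18, 18, 31 and 50, against 23.9% to 25.6% of all genes for each library as lowest and 23.9% to 26.4% as highest. The condensin and cohesin genes, which compact and tie sister chromatids, were the list with the most separate intervals, 17 of 18, against 56.9% of all genes. Their ranges were not wide: 2 of the 18 reached 0.5, against 17.3% of all genes. The median log2 range of that list was 0.282, near the 0.275 of all genes. Smc3 (cohesin) was at 20.8, 22.7, 26.3 and 32.0 FPKM, Smc4 at 31.6, 37.6, 37.2 and 47.5 FPKM and Smc2 (both condensin) at 12.2, 14.3, 15.3 and 17.6 FPKM. In all 3 library 01 was lowest and library 22 highest, while Rad21 and Ncaph2, with the highest medians beside Smc4, had 64.1 and 36.4 FPKM.

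Among other kinetochore genes, 5 of 27 had a range of 0.5 or more, a share near the 17.3% of all genes. Cenpm was at 10.6, 7.87, 12.8 and 14.5 FPKM, Cenpp at 4.08, 3.56, 5.89 and 5.95 FPKM and Pmf1 at 12.8, 11.5, 17.3 and 17.6 FPKM, with library 02 lowest and library 22 highest, as for Spc24. The remaining pair that passed 0.5, outside the rule for named genes and named after their values were seen, had library 01 lowest: Ska1 was at 8.02, 8.59, 12.4 and 11.3 FPKM and Cenpu at 3.14, 3.57, 4.12 and 5.04 FPKM. Zwint, with the highest median of that list at 48.1 FPKM, was instead lowest in library 21, and Mis12 had a median of 16.5 FPKM. Of the 12 genes of factors that activate or repress mitotic genes, the CCAAT-binding NF-Y subunit gene Nfya had the widest range, at 15.4, 16.1, 9.2 and 8.87 FPKM, lowest in library 22 and highest in library 02. Its list also held Lin37 and Lin52 of the DREAM complex, with ranges of 0.565 and 0.564, and the highest medians of Tfdp1 (67.3 FPKM), E2f4 (52.8 FPKM) and Mybl2 (25.1 FPKM).

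Among cyclin and CDK regulators, Cks1b and Cks2, small subunits of CDK complexes, had medians of 123 and 85.3 FPKM and Ensa, an inhibitor of the phosphatase PP2A, 21.8 FPKM, while the widest ranges were those of Mastl (0.67), the Greatwall kinase, Cdc25c (0.45) and Bora (0.41). None of the 10 other checkpoint genes and none of the 17 genes of the anaphase promoting complex reached a range of 0.5. Of all genes 17.3% did. Among these checkpoint genes the widest were Kntc1 (0.43), Trip13 (0.40) and Sgo1 (0.30), and Mad2l1bp and Zw10 had medians of 28.9 and 16.6 FPKM. In the anaphase promoting complex the widest were Cdc16 (0.47), Anapc5 (0.41) and Anapc13 (0.40), and Anapc2 had a median of 31.5 FPKM. Of 20 spindle and cytokinesis genes, Fam83d (0.62) and Kif14 (0.52) passed 0.5, against 17.3% of all genes, and Kif15 (0.49) followed. Fam83d was a low gene, at 0.77, 1.02, 1.72 and 1.62 FPKM on 38, 53, 85 and 83 counts. In that list Tacc3, Numa1 and Ckap5 had the highest medians at 35.8, 22.6 and 19.1 FPKM.

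Some of the 39 values carry a limit from shared sequence or overlapping genes, since how strand was handled in the counting is not given. In GENCODE M21, 78.6% of the 100-base stretches of Kif20a, 85.1% of Ccnb1, 89.9% of Ccna2, 93.2% of Prc1 and 93.8% of Ube2c occur in no other gene, counting both strands. The shared stretches are mostly those of Cdc23, a pseudogene of Ccnb1, Exosc9, Rccd1 and Tnnc2. Cdc23 had 710, 763, 753 and 846 counts against 998, 1138, 1125 and 1081 of Kif20a, and Exosc9 had 533, 625, 585 and 580 against 1653, 1719, 2204 and 2273 of Ccna2. The part of shared reads in the values of these genes was not tested.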

How the data were processed

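Poly(A) RNA-seq of 4 libraries was analysed. The table deposited by the authors holds raw counts per gene beside FPKM values, as named in the file headers. The deposited counts are whole numbers with a different sum in each library. The FPKM are the authors' own. Dividing a count by its exonic size and FPKM returned the summed count within 0.0496% above 10 FPKM, so FPKM is scaled to all counts. The submitters' processing notes name HISAT2, FastQC and DESeq2, without versions or roles. Read counter, genome build and annotation are not given in sources used here, and coordinates are printed as deposited. As no library has a group, no test between groups was run.

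Intervals are exact Poisson 95% intervals of the counts (scipy 1.17.1) and Wilson 95% intervals of shares. They cover counting error only, not variation between cultures or library preparations. They also treat every counted fragment as independent, which PCR copies are not. The log2 range uses a pseudocount of 1 FPKM and, as background, genes averaging at least 1 FPKM. Both calculations were tested on simulated Poisson counts. All 39 members are named. Of the other mitosis genes, those with the 3 highest medians and the 3 widest ranges of each list are named. Cell type markers were 5 lists, whose sums open the report. Members, lists and thresholds were chosen with earlier results of these data known. Alternatives were other pseudocounts, filters, interval levels and promoter windows, rescaling by TMM (edgeR 4.0.16) or median-of-ratios factors or to equal summed FPKM, and leaving out each library.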

Additional observations from a re-analysis of the deposited data

How the results depend on the processing

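The counts and medians above kept close to their values under most alternatives. The number of genes with a log2 range of 0.5 or more was 2 to 4 with other pseudocounts, filters and scalings, and 1 to 3 when 1 library was left out, 1 being the count without library 01. Leaving out a library can only narrow a range, and the matching shares of all genes were not counted. The median log2 range was 0.178 to 0.222 with other pseudocounts, filters and scalings and 0.176 to 0.206 with 1 library left out. Rescaling each library to the same sum of FPKM gave 4 genes lowest in library 21 and 1 lowest in library 22, in place of 1 and 3. Under every scaling, the median difference of all genes between any pair of libraries was at most 0.029 (log2). Within 100 bases before the start, TTTGAA was in 9 promoters and both motifs in 8 (24.2%), against 3.85% and 1.13% of expressed genes. Within 50 bases on either side of the start, an alternative chosen after seeing the data, CCAAT at 2 or more places was in 1 promoter (3.03%), against 2.36% of expressed and 1.7% of all genes, so the members' share in that window was near the background. A pseudocount of 5 FPKM moved the range of 3 genes, Cenpf, Kif23 and Spc24, beyond their counting error. No paired analysis was possible because the labels put no library in a group. With 266 to 11723 counts per gene, a difference of about 0.119 (log2) between 2 libraries is the median counting error of the 39 genes.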

Other observations

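For 23 of the 39 genes (59%) the lowest libraries were 01 and 02, and for 3 (7.69%) they were 21 and 22, whereas among all 11874 background genes the shares of these orders were alike, at 31.2% and 31.1%. Each of the other 4 orders accounted for 2 to 4 of the 39 genes and for 9.02% to 10.2% of all genes. The values of Spc24 (9.45, 7.93, 15.6 and 18.1 FPKM), Bub1 (19.3, 18.6, 24.7 and 26.3 FPKM) and Birc5 (23.1, 23.2, 31.3 and 31.3 FPKM) lay in separate low and high pairs. They are examples named after their values were seen, and genes with such separate pairs were not counted, among the 39 or among all genes. The labels do not say what the libraries share, and these orders do not place any of them in a group. Genes of one complex did not all follow the same order, as Incenp (30.8, 28.7, 30.8 and 30.7 FPKM) and Birc5 show for the chromosomal passenger complex.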
